A study of Homo sapiens with 8 samples.

Results

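The genes CCND1, CCND2, CCND3, CCNE1, CCNE2, CDK2, CDK4, CDK6, CDKN1A and CDKN1B encode cyclins, cyclin-dependent kinases (CDKs) and inhibitors that act in the G1 phase of the cell cycle. They were taken by symbol, all 10 of them, from the 26475 gene symbols of a table of RNA-seq counts. Of the 10, 9 had enough counts to be tested among 14008 genes, and CCND2 did not. The libraries came from BT474, a luminal human breast cancer line, long established in culture, in which ERBB2 is amplified. Their only labelled difference was the level of NPY1R, which encodes a receptor for neuropeptide Y: 4 libraries were NPY1R high and 4 were NPY1R low. The series title places them in work on breast cancer cells that persist under lapatinib, which blocks EGFR and ERBB2, but the labels name no drug, no treatment time and no way in which high and low cells were separated. They also do not say whether the replicates were separate cultures, so p-values measure only the spread between these libraries, which may be technical.

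In G1, D-type cyclins (CCND1, CCND2, CCND3) bind CDK4 or CDK6, and the kinases phosphorylate the retinoblastoma protein, which holds back E2F transcription factors. E-type cyclins (CCNE1, CCNE2) then bind CDK2 to carry cells into S phase. The CIP/KIP inhibitors p21 (CDKN1A) and p27 (CDKN1B) block CDK2 complexes, and they also help D-type cyclins to assemble with CDK4 and CDK6. In breast cancer, CCND1 is a known target of oestrogen receptor signalling, and drugs against CDK4 and CDK6 are in clinical use.

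Between NPY1R high and NPY1R low cells, 2 of the 9 tested genes passed the threshold: CDK6 rose 2.62-fold and CDKN1B fell by 0.33 on the log2 scale. The test was edgeR's quasi-likelihood test, fitted on all 14008 genes; a gene was called when its p, adjusted by Benjamini and Hochberg's method (the edgeR adjusted p), was under 0.05. The 2 called genes are 22.2% of the tested members, where 13.6% of all tested genes were called. For rises it is 1 of 9 members, against 5.78% of all genes, and for falls 1 of 9, against 7.81%. The 2 groups did not overlap in level for 3 of the 9 (33.3%), CDK4, CDK6 and CDKN1B, where 20.2% of all tested genes did not overlap. With so few members these shares lie near the background and are no result about the set as a whole. The median log2 change of the 9 tested members was 0.07, against -0.03 over all tested genes, with 6 members above 0 and 3 below.

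**Figure D1:**
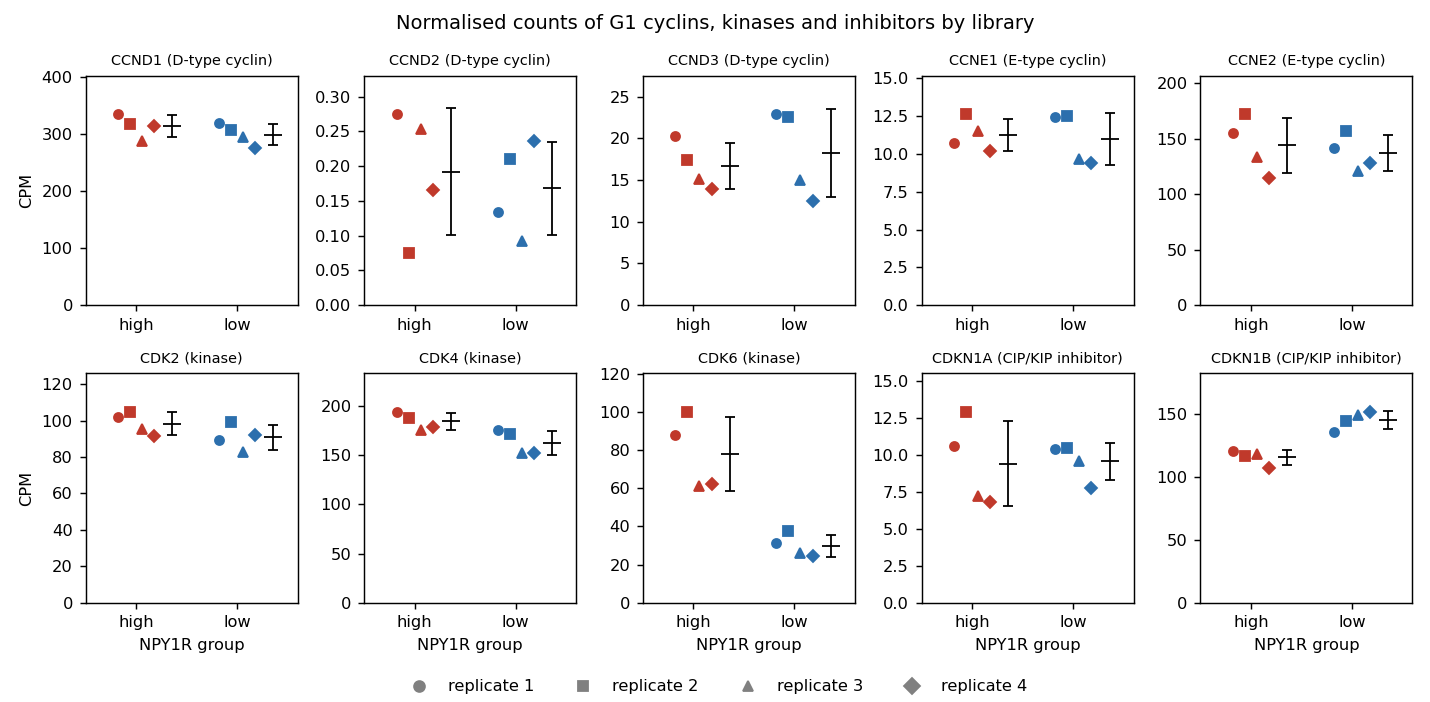
Level of each of the 10 genes in normalised counts (CPM, linear axis from 0, a different scale in each panel) in the 4 NPY1R high (red) and 4 NPY1R low (blue) libraries. Marker shapes give the replicate number, and black bars give the group mean ± SD (n = 4). CDK6 is higher in every NPY1R high library, CDKN1B is higher in every NPY1R low library, CDK4 is separated by a small margin, and the other panels overlap.

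The windows in front of the 2 genes that changed are shown here because their levels moved in opposite directions. They are the 250 bases before the annotated start, 5′ to 3′ on the strand of the gene, from RefSeq (GRCh38.p14). The CDK6 window lies at chr7:92836574-92836823 on the minus strand, and the CDKN1B window at chr12:12717118-12717367 on the plus strand. Capitals mark GGGCGG or its reverse complement CCGCCC, the core of the GC box bound by SP1.
CDK6: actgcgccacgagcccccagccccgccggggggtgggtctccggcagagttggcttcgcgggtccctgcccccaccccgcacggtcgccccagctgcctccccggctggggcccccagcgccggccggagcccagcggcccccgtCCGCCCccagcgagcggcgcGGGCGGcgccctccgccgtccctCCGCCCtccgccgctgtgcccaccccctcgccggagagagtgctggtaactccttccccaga
CDKN1B: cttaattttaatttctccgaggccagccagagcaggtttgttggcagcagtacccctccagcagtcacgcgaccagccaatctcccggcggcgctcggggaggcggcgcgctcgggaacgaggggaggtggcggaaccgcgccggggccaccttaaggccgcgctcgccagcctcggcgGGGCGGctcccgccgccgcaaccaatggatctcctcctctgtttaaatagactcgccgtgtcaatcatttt
The CDK6 window held 3 such boxes and the CDKN1B window held 1. Over the full windows of 300 bases, 78.0% of the CDK6 letters and 62.3% of the CDKN1B letters were G or C. Motifs were searched on both strands in these windows (250 before the start and 50 after it), of which the RefSeq table held 35116. It held windows for 6 of the 10 genes: CCND3, CCNE1, CDK4, CDK6, CDKN1A and CDKN1B. The windows of CCND3 (chr6:42048639-42048938) and CDKN1A (chr6:36678464-36678763) lie inside the gene spans given below. Their start is therefore one within the gene, not its outer end. All 6 contained GGGCGG, as did 45.0% of all windows. Genes that were not called held as many boxes as CDK6 or more: 7 in CCNE1, 5 in CCND3, 4 in CDKN1A and 3 in CDK4. In the CCNE1 window 81.0% of the letters were G or C. None of the 6 contained TTTCCCGC or TTTGGCGC, both of them spellings of an E2F site, which occurred in 1.63% and 0.652% of windows. GTAAACA, a core of forkhead (FOXO) sites, occurred in the CCND3 window alone among the 6 and in 3.42% of all windows. The 4 spellings do not overlap each other in these windows, and a match shows the letters only.

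The labels were checked against NPY1R and against markers of the cell type. NPY1R itself stood at 856.5 ± 170.4 CPM in the high group against 95.5 ± 5.65 CPM in the low group (SD, n = 4 each), a log2 fold change of 3.16 (SE 0.13). CPM here is the count scaled to a common library size after TMM scaling, which corrects each library for differences in composition. Luminal keratins were abundant, with KRT8 at 1510.6 CPM and 1428.1 CPM in the high and low groups, and ERBB2 stood at 3176.7 and 3760.0 CPM. Several defining markers of other cell types were absent: KRT14 (basal), COL1A2, DCN and PDGFRB (fibroblast) and CD3E (leukocyte) had no count in any library (a count of 0 allows up to 3). The markers of other cell types with enough counts to be tested were TP63, COL1A1, CD68 and VWF. Of the 9 luminal markers, 3 rose in NPY1R high (ESR1, GATA3 and PGR) and EPCAM fell, and their summed level ran from 9314.9 to 10639.4 CPM over the NPY1R high libraries and from 7726.1 to 9845.4 CPM over the NPY1R low libraries. The summed level of 5 basal markers ran from 5.05 to 8.98 and from 4.80 to 7.78 CPM, that of 6 fibroblast markers from 10.9 to 17.5 and from 10.4 to 17.5 CPM, that of the leukocyte markers from 0.936 to 1.23 and from 1.14 to 2.07 CPM, and that of 4 endothelial markers from 9.22 to 15.6 and from 13.5 to 18.2 CPM, in NPY1R high and low respectively. None of TP63, COL1A1, CD68 and VWF passed the test, and the part of any of these values in the results was not tested. Library totals ran from 18025648 to 30609791 counts. The first principal component (42.6% of the variance) separated the groups, and the second (27.1%) separated replicates 1 and 2 from 3 and 4 in both groups, a division for which the labels give no batch or other reason. In bulk RNA, fewer cells expressing a gene and less RNA per cell cannot be told apart.

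CCND1, the cyclin D1 gene (chr11:69641156-69654474), was the most abundant of the D-type cyclins. Its level was 334.4, 316.5, 287.7 and 313.4 CPM in NPY1R high replicates 1 to 4 and 318.1, 306.4, 294.4 and 274.9 CPM in NPY1R low replicates 1 to 4. The groups overlapped, and the log2 fold change of 0.07 (SE 0.06) missed the threshold (edgeR adjusted p 0.571). Its 95% interval ran from -0.07 to 0.21. CCND3, the cyclin D3 gene (chr6:41934933-42050035), measured 20.3, 17.4, 15.1 and 13.99 CPM in the NPY1R high libraries against 22.9, 22.6, 15.0 and 12.5 CPM in the NPY1R low libraries. In both groups replicates 1 and 2 were higher than 3 and 4, and the spread within a group was larger than the difference between groups (log2 fold change -0.13, 95% interval -0.58 to 0.32, edgeR adjusted p 0.764).

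CCND2, the cyclin D2 gene (chr12:4273762-4305353), was barely detected. Its counts were 8, 2, 7 and 3 in NPY1R high and 4, 6, 2 and 6 in NPY1R low, sums of 20 and 18. With no filter on low counts its edgeR adjusted p was 0.859, so no difference was detectable at this depth. In these cells the D-type cyclin RNA was therefore almost all CCND1: per kilobase of transcript, it made up 93.0% ± 0.814 of the D-type total in NPY1R high and 92.1% ± 1.72 in NPY1R low (SD, n = 4 each). The ratio of CCND1 to CCND3 counts differed between the groups by 0.16 on the log2 scale, with an exact two-sided permutation p of 0.457 (0.610 adjusted over 4 ratios).

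The E-type cyclins also differed by less than the spread between libraries. CCNE1, the cyclin E1 gene (chr19:29811991-29824312), ranged from 10.2 to 12.6 CPM over the NPY1R high libraries and from 9.39 to 12.5 CPM over the NPY1R low libraries, with a log2 fold change of 0.04 (95% interval -0.25 to 0.32, edgeR adjusted p 0.907). CCNE2, the cyclin E2 gene (chr8:94880224-94896693), ranged from 114.9 to 172.2 CPM and from 120.4 to 157.3 CPM, with a log2 fold change of 0.07 (95% interval -0.21 to 0.35, edgeR adjusted p 0.783). CCNE2 overlaps INTS8 and NDUFAF6 in RefSeq, and its deposited counts are not whole numbers, so its level is uncertain. CCNE2 was the main E-type cyclin in both groups. Per kilobase it took 91.0% ± 0.977 of the E-type total in NPY1R high and 90.9% ± 0.609 in NPY1R low (SD, n = 4 each), and the ratio of the E-type cyclins differed by -0.02 on the log2 scale (exact permutation p 0.914).

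CDK2, the partner of the E-type cyclins (chr12:55966830-55972789), ranged from 91.4 to 104.9 CPM over the NPY1R high libraries and from 82.8 to 99.5 CPM over the NPY1R low libraries. The groups overlapped, with a log2 fold change of 0.11 (SE 0.07, 95% interval -0.04 to 0.27, edgeR adjusted p 0.352). CDK4, a partner of the D-type cyclins (chr12:57747727-57752310), measured 194.4, 188.3, 176.2 and 179.3 CPM in the NPY1R high libraries against 175.4, 171.3, 152.1 and 152.2 CPM in the NPY1R low libraries. Every NPY1R high library was above every NPY1R low library, by less than 1 CPM at the closest pair. The log2 fold change of 0.18 (SE 0.06), or 1.13-fold, missed the threshold (edgeR adjusted p 0.0968). CDK4 passed it in 14 of 27 alternative analyses, with adjusted p from 0.00946 to 0.240, so the call depends on the scaling, the model and the libraries used. Of the 8 analyses that left out 1 library, the one without NPY1R low replicate 1 called it (edgeR adjusted p 0.0381). CDK4 overlaps TSPAN31, which had 17.6 ± 1.92 and 16.8 ± 1.04 CPM (SD, n = 4 each) and an edgeR adjusted p of 0.733. The deposited CDK4 counts are not whole numbers, so the CDK4 level is uncertain.

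CDK6, the other partner of the D-type cyclins, showed the largest difference among the 10 genes. It spans chr7:92604921-92836573 on the minus strand. Its counts were 2565, 2694, 1684 and 1132 in NPY1R high replicates 1 to 4 and 927, 1071, 566 and 622 in NPY1R low replicates 1 to 4. As CPM these were 88.1, 100.2, 60.9 and 62.3 against 31.1, 37.5, 25.9 and 24.4, so the lowest NPY1R high library stood well above the highest NPY1R low library. The means were 77.9 ± 19.4 and 29.7 ± 5.92 CPM (SD, n = 4 each). The log2 fold change was 1.39 (SE 0.19), a 2.62-fold rise with a 95% interval of 1.96-fold to 3.50-fold and an edgeR adjusted p of 0.000896. By size of change CDK6 ranked 168 among the 810 genes that rose. In RefSeq, CDK6 overlaps the long non-coding RNA genes CDK6-AS1 and LOC112268009, and neither symbol was among those counted. The CDK6 window shown above lies within CDK6-AS1. Whether reads from these genes entered the CDK6 counts was not tested.

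The level of CDK6 also differed within each group along the same lines as the second principal component. Replicates 1 and 2 exceeded replicates 3 and 4 by 0.61 on the log2 scale in NPY1R high and by 0.44 in NPY1R low. The difference between the groups was 1.46 in replicates 1 and 2 and 1.29 in replicates 3 and 4. CDK6 passed the threshold in all 27 alternatives, where its log2 change lay between 1.24 and 1.52.

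**Figure D2:**
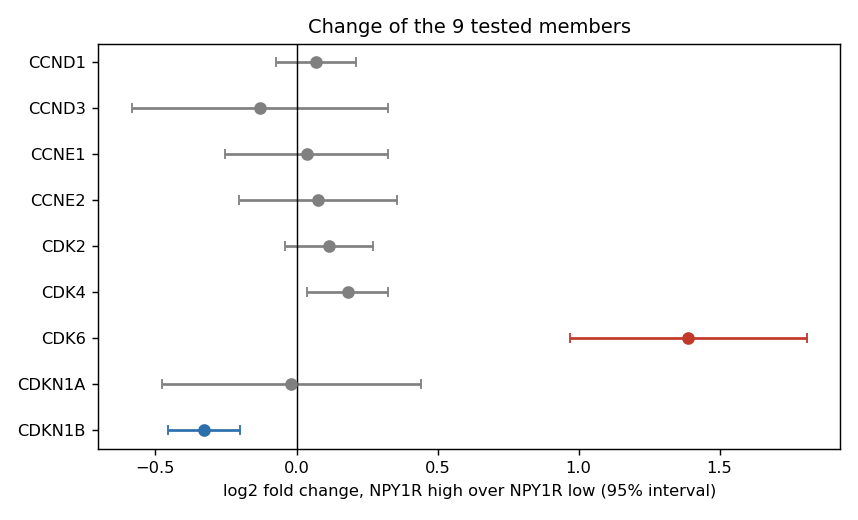
Log2 fold change of the 9 tested genes, NPY1R high over NPY1R low, with 95% intervals from edgeR's quasi-likelihood fit (n = 4 per group); red marks a rise and blue a fall past an adjusted p of 0.05, and grey marks neither. The interval of CDK6 runs from 0.97 to 1.81 and that of CDKN1B from -0.46 to -0.20; the CDK4 interval also lies above 0, but its adjusted p was 0.0968.

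CDK4 and CDK6 bind the same cyclins, and a ratio within a library does not depend on the scaling. There were 2.21, 1.88, 2.89 and 2.88 CDK4 counts per CDK6 count in the NPY1R high libraries and 5.64, 4.57, 5.88 and 6.23 in the NPY1R low libraries. The groups did not overlap, and the ratio was 2.29-fold lower in NPY1R high (-1.19 on the log2 scale). The exact two-sided permutation p was 0.0286, the smallest that 4 libraries against 4 can give, and 0.114 after adjustment over the 4 ratios. Because the other ratios had far larger p-values, 0.114 was the lowest adjusted value this ratio could reach. The adjusted value therefore cannot decide whether the ratio differed. The difference was -1.32 in replicates 1 and 2 and -1.07 in replicates 3 and 4. CDK4 nonetheless stayed the more abundant kinase RNA in both groups: per kilobase, CDK6 made up 4.71% ± 0.962 of the pair in NPY1R high and 2.10% ± 0.291 in NPY1R low (SD, n = 4 each).

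CDKN1A, the p21 gene (chr6:36676463-36687332), measured 10.6, 12.9, 7.24 and 6.83 CPM in the NPY1R high libraries against 10.4, 10.5, 9.56 and 7.74 CPM in the NPY1R low libraries. The NPY1R high libraries spanned the whole range of the NPY1R low libraries. The log2 fold change was -0.02 (95% interval -0.48 to 0.44, edgeR adjusted p 0.971), and its sign turned in 18 of 27 alternatives, other scalings among them, so no direction can be given. It was 0.16 in replicates 1 and 2 and -0.29 in replicates 3 and 4.

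CDKN1B, the p27 gene, lies at chr12:12717368-12722369 on the plus strand. Its counts were 3528, 3148, 3272 and 1951 in NPY1R high and 4052, 4141, 3275 and 3876 in NPY1R low. As CPM these were 121.2, 117.1, 118.4 and 107.4 against 136.0, 145.0, 149.9 and 152.2, and every NPY1R high library was below every NPY1R low library. The means were 116.0 ± 5.98 and 145.8 ± 7.19 CPM (SD, n = 4 each). The log2 fold change was -0.33 (SE 0.06, 95% interval -0.46 to -0.20) with an edgeR adjusted p of 0.00395, which makes NPY1R low 1.26-fold higher.

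Although it was clear against its replicate spread, this was a modest change: CDKN1B ranked 755 by size among the 1094 genes that fell. It was -0.24 in replicates 1 and 2 and -0.42 in replicates 3 and 4. CDKN1B passed the threshold in all 27 alternatives, with log2 changes between -0.36 and -0.26. Of the CDKN1A and CDKN1B RNA per kilobase, CDKN1B made up 96.7% ± 0.915 in NPY1R high and 97.3% ± 0.457 in NPY1R low (SD, n = 4 each), and the count ratio of CDKN1A to CDKN1B differed by 0.27 on the log2 scale (exact permutation p 0.371, 0.610 adjusted over the 4 ratios).

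**Figure D3:**
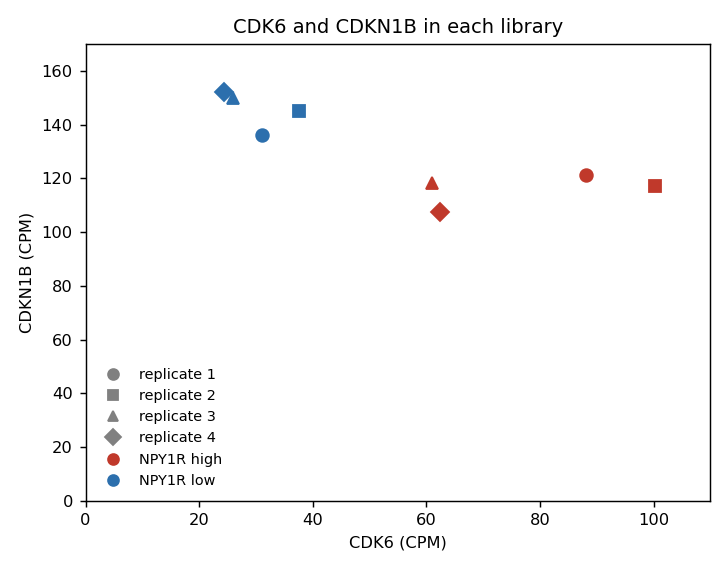
CDK6 level (horizontal axis, CPM) against CDKN1B level (vertical axis, CPM) in each of the 8 libraries, both axes linear from 0, with the group given by colour and the replicate number by marker shape. The NPY1R high libraries lie at 60.9 to 100.2 CPM of CDK6 and 107.4 to 121.2 CPM of CDKN1B, and the NPY1R low libraries at 24.4 to 37.5 and 136.0 to 152.2 CPM, so the groups are apart on both axes; no correlation is given because the 2 groups form separate clusters.

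To set the genes against each other, levels were divided by the median length of each gene's protein-coding transcripts in GENCODE release 29. In CPM per kilobase, NPY1R high ran from CDK4 (239.4) through CDKN1B (129.3), CCND1 (128.8), CCNE2 (70.5), CDK2 (65.9), CDK6 (11.9), CCND3 (9.68), CCNE1 (6.87) and CDKN1A (4.46) to CCND2 (0.05). CDKN1B and CCND1 did not differ beyond their spread there, nor did CCNE2 and CDK2, nor CDK6 and CCND3. In NPY1R low, CDK4 (211.1) was again first and CCND2 (0.05) last, and CDKN1B (162.5) stood above CCND1 (122.8). CDK6 changed place: it was sixth of the 10 in NPY1R high and eighth in NPY1R low, where at 4.55 ± 0.906 CPM per kilobase it lay beside CDKN1A at 4.54 ± 0.605 (SD, n = 4 each). The order depends on the length used. With the longest transcript of each gene, CCND1 (72.7 and 69.3 CPM per kilobase in high and low) ranked above CDKN1B (43.7 and 54.9) in both groups, and CDK6 was seventh and ninth.

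The genes around CDK6 were examined after its rise was seen. Of the 10 tested genes nearest to it, 5 on each side between positions 92245974 and 93890753 of chromosome 7, 4 rose and none fell, where 5.78% of all tested genes rose. The 4 that rose lie before the CDK6 start. CALCR, the calcitonin receptor gene, went from 1.84 ± 0.198 to 14.2 ± 1.3 CPM (log2 fold change 2.95, SE 0.13), and TFPI2, a gene for a serine protease inhibitor, from 0.914 ± 0.379 to 3.92 ± 0.420 CPM (2.12, SE 0.26), each with n = 4 per group. SAMD9 rose by 1.09 (SE 0.17) and VPS50 by 0.26 (SE 0.06) on the log2 scale, while HEPACAM2, between them, had a log2 change of -1.23 that missed the threshold (edgeR adjusted p 0.0801). On the other side of CDK6, ANKIB1, GATAD1, RBM48 and FAM133B had log2 changes of -0.13 to 0.23, and none of these 4 passed. Around CDKN1B, between positions 12326056 and 13000265 of chromosome 12, 1 of 10 neighbours fell, where 7.81% of all tested genes fell; it was APOLD1 (log2 fold change -0.92, SE 0.13, edgeR adjusted p 0.00105). None of these 10 rose. Whether these neighbours share anything beyond position was not tested.

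The genes whose levels lay closest to those of CDK6 over the 8 libraries, the difference between the groups included, were RHOBTB3, FSTL1 and GPC6. Likeness was the root mean square distance between centred log2 CPM values over 10441 genes with a mean of at least 5 CPM, and it was 0.115, 0.135 and 0.144 for these 3. They rose by 1.39, 1.48 and 1.24 on the log2 scale. Centring was over all 8 libraries, so a change near that of the member is built into the measure. Likeness within a group was not measured. For CDKN1B the closest were NADK2, HINT3 and SOWAHC, with distances of 0.0383, 0.0384 and 0.0391 and log2 changes of -0.29, -0.34 and -0.36. The call of NADK2 was lost without NPY1R high replicate 4 (edgeR adjusted p 0.0637). The smaller distances for CDKN1B go with its smaller change and smaller spread.

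Among the other CDK inhibitors (CDKN1C, CDKN2A, CDKN2B, CDKN2C and CDKN2D), none of the 5 passed the threshold and the median log2 change was -0.10. Over all tested genes, 13.6% were called. CDKN2D, for p19, stood at 2.98 ± 0.807 CPM in the high group against 5.09 ± 1.31 CPM in the low group (SD, n = 4 each; log2 change -0.76, edgeR adjusted p 0.0612). CDKN2C, for p18, the most abundant of the 5 by CPM, had 6.97 ± 1.57 against 9.05 ± 1.01 CPM (SD, n = 4 each; log2 change -0.37, edgeR adjusted p 0.187). CDKN2A, for p16 and ARF, had a log2 change of 0.53 and CDKN2B, for p15, of 0.56, both at mean levels below 2 CPM. The INK4 inhibitors CDKN2A, CDKN2B, CDKN2C and CDKN2D bind CDK4 and CDK6 directly.

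Of 6 genes for CDK-activating and regulatory partners (CDK7, CCNH, MNAT1, CDC25A, CDC37 and WEE1), 1 fell and none rose, with a median log2 change of -0.09. Of all tested genes, 7.81% fell and 5.78% rose. The one that fell was WEE1, the kinase that places inhibitory phosphates on CDK1 and CDK2, from 152.3 ± 4.31 to 127.0 ± 8.85 CPM (SD, n = 4 each; log2 change -0.26, edgeR adjusted p 0.0151). Its call was lost in 6 of 27 alternatives, 4 of which left out 1 library: without NPY1R high replicate 3 or 4 its adjusted p was 0.0684 and 0.0783, and without NPY1R low replicate 1 or 4 it was 0.0614 and 0.0519. Another of the 6 was the threshold of 0.01 on the main fit, which any adjusted p above 0.01 misses by definition. The counts of lost calls for SKP2, JUN, KLF4, CCNF and CDK1 below include that threshold too.

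Of 17 genes for the ubiquitin-dependent turnover of G1 regulators, 1 rose and 1 fell, where 5.78% and 7.81% of all tested genes did. Their median log2 change was -0.02. The 2 that passed encode parts of the same ligase, which marks p27 protein for destruction. SKP2, its substrate receptor, measured 107.3, 106.8, 106.1 and 97.6 CPM in the NPY1R high libraries against 88.1, 95.8, 86.9 and 90.5 CPM in the NPY1R low libraries. The groups did not overlap, and SKP2 rose by 0.21 on the log2 scale (SE 0.05, edgeR adjusted p 0.0289), a call lost in 6 of 27 alternatives. Its adjusted p was 0.0543 with a replicate block, 0.0887 and 0.0846 without NPY1R high replicate 1 or 2, and 0.0519 and 0.0924 without NPY1R low replicate 1 or 3. CKS1B, the adaptor that SKP2 needs to bind p27, measured 85.8, 83.6, 88.3 and 76.3 CPM in the NPY1R high libraries against 116.5, 102.5, 121.8 and 129.0 CPM in the NPY1R low libraries. CKS1B fell by 0.49 on the log2 scale (SE 0.08, edgeR adjusted p 0.0021) and passed in all 27 alternatives. SKP2 and CKS1B thus moved in opposite directions.

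None of the 10 RB family and E2F genes passed the threshold, where 13.6% of all tested genes did. Their median log2 change was -0.03. RB1, the retinoblastoma gene, stood at 103.8 ± 3.69 CPM in the high group against 104.8 ± 4.22 CPM in the low group (SD, n = 4 each), and E2F1 had 19.4 ± 4.27 and 20.7 ± 5.16 CPM. Across the 10 the log2 changes lay between -0.17 (RBL1) and 0.11 (RBL2).

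Of 13 transcription factors known to act on the 10 genes, 4 rose and 1 fell, where 5.78% and 7.81% of all tested genes did. Their median log2 change was 0.03. FOS, an AP-1 factor, rose from 19.4 ± 2.40 to 37.5 ± 1.17 CPM (log2 change 0.95, SE 0.09). ESR1, the oestrogen receptor gene, rose from 70.1 ± 2.93 to 105.4 ± 3.76 CPM (0.59, SE 0.05), and MYC rose from 105.6 ± 9.13 to 155.7 ± 10.7 CPM (0.56, SE 0.07), each with n = 4 per group. JUN, the partner of FOS, rose by 0.28 (edgeR adjusted p 0.0175), a call lost in 4 of 27 alternatives. Its adjusted p was 0.0532 without NPY1R high replicate 1, and 0.0509 and 0.0584 without NPY1R low replicate 2 or 3. KLF4, known to act on CDKN1A, had a log2 change of -0.32 and an edgeR adjusted p of 0.0388, a call lost in 24 of 27 alternatives, among them all 8 that left out 1 library. Over all 27 alternatives its adjusted p ran from 0.0146 to 0.195. FOXO3, a factor known to act on CDKN1B, had 310.9 ± 24.8 and 268.3 ± 24.3 CPM (SD, n = 4 each; log2 change 0.21, edgeR adjusted p 0.116).

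**Figure D4:**
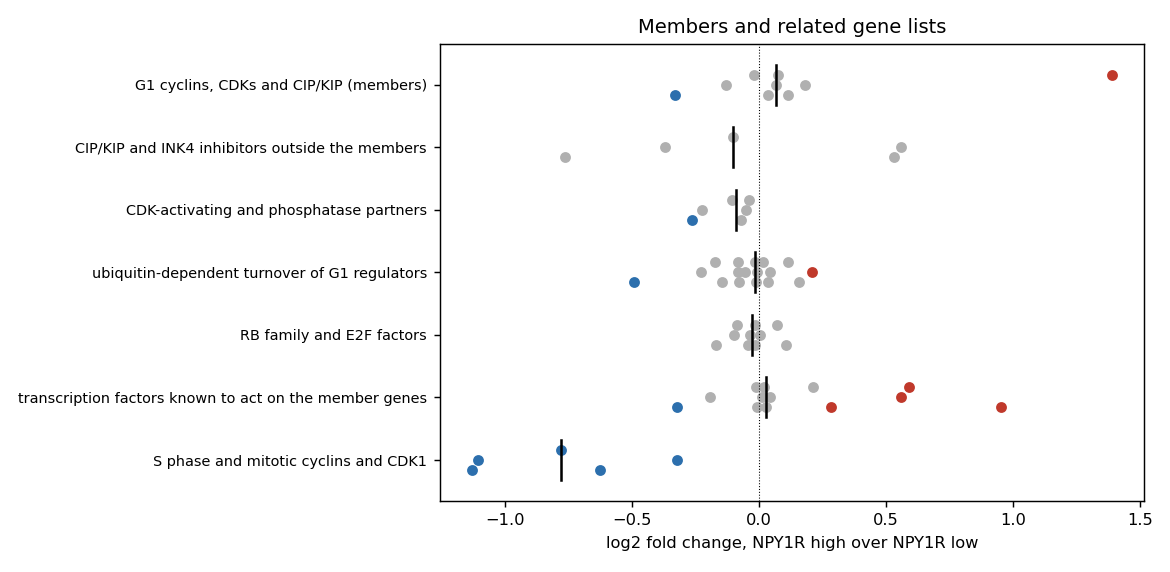
Log2 fold change (NPY1R high over NPY1R low) of each tested gene in the G1 set and in 6 lists of related genes, 1 point per gene, with red for a rise and blue for a fall past an edgeR adjusted p of 0.05, grey for neither, and a black line at the list's median. The 5 S phase and mitotic genes all lie below 0 with a median of -0.78, while the medians of the other lists lie between -0.10 and 0.07.

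All 5 listed cyclin and kinase genes that act after G1, in S phase and mitosis, fell, with a median log2 change of -0.78. Of all tested genes, 7.81% fell. CCNB2 and CCNB1, the B-type cyclins of mitosis, fell by 1.13 (SE 0.07) and by 1.10 (SE 0.08) on the log2 scale, CCNB1 from 174.2 ± 9.47 to 81.1 ± 8.43 CPM. CCNA2, the cyclin of S phase and G2, fell by 0.78 (SE 0.09), from 114.2 ± 3.41 to 66.5 ± 9.64 CPM (SD, n = 4 each). CCNF and CDK1 also passed, with log2 changes of -0.63 (edgeR adjusted p 0.0209) and -0.32 (edgeR adjusted p 0.0398), and these calls were lost in 7 and 21 of 27 alternatives. The CCNF call was lost without any 1 of NPY1R high replicates 2, 3 and 4 or NPY1R low replicates 1, 2 and 3 (edgeR adjusted p 0.0524 to 0.0842), and the CDK1 call without any 1 library other than NPY1R high replicate 2 (0.0588 to 0.117) and under every other scaling tried. This list was chosen with the fall of mitotic genes in these libraries already known, so its count is a description. The share of cells in each phase of the cycle was not measured, and its part in the levels of the 10 G1 genes was not tested.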

How the data were processed

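RNA-seq libraries of BT474 cells were compared, 4 NPY1R high and 4 NPY1R low. Per the labels' protocols, libraries were made with a stranded TruSeq kit. The authors deposited expected counts for each gene symbol, without scaling; STAR 2.5.2, RSEM 1.3.0 and hg38 are named in the submitters' processing notes, while the annotation and the use of strand in counting are not given in the sources used here. The table of the whole series was used, and 0 values differed from the single-sample tables. No 2 libraries of a group agreed within sampling noise (chi-square per degree of freedom 6.00 to 66.4 over 12 pairs).

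Expected counts were rounded to whole numbers. Genes were filtered with edgeR's filterByExpr (minimum count 10), scaled by TMM and compared with edgeR's quasi-likelihood test without covariates, with Benjamini-Hochberg adjustment and a threshold of 0.05 (R 4.3.3, edgeR 4.0.16, limma 3.58.1, DESeq2 1.42.0). Log2 CPM used a prior count of 2. For ratios of counts the test was an exact two-sided permutation test. Positions came from RefSeq (GRCh38.p14), and transcript lengths from GENCODE release 29.

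The 10 members and the lists were chosen with earlier results of these data known. The genes named are all members, NPY1R, up to 3 called genes per direction of each pathway list and the 3 genes most like the member with the largest rise and the one with the largest fall. JUN, CCNF, CDK1, the genes given without a call, the markers and the chromosomal neighbours were chosen after their values were seen. The main test did not pair the samples by replicate number. Deviations from the group mean had correlations between samples of the same number of 0.339, 0.157, 0.0907 and 0.0178 for replicates 1 to 4. Whether the numbers mark pairs cannot be told from these values. Alternatives were other scalings and TMM reference libraries, other filters, DESeq2, limma-voom, a replicate block, a GC offset, a term for replicates 1 and 2 against 3 and 4, leaving out each library, a threshold of 0.01 and other transcript lengths. Some genes, and 1 of the lists, are not reported here.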

Additional observations from a re-analysis of the deposited data

Results flagged for a closer look

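SKP2 had 1 library apart from the rest of its group. In NPY1R high, replicate 4 had 97.6 CPM where the other 3 libraries had 106.1 to 107.3 CPM, and the gap made up 0.879 of the group's range on the log2 scale, more than Dixon's test allows at the 95% level. Among 78 group values examined in this way 1 stood out, where chance would give 3.9 at 1 in 20. NPY1R high replicate 4 was also the library with the lowest total, 18025648 counts.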

How the results depend on the processing

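Over 27 alternatives per gene, CDK6 and CDKN1B kept their direction and their call, and 2 or 3 of the members were called, the third being CDK4. All genes called numbered 1904, of which 42.5% were higher; they numbered 2864 with a GC offset, 3287 with a replicate block and GC offset, 2886 when replicates 1 and 2 were set against 3 and 4 as a term, 1032 at an adjusted p under 0.01, and 1351 to 2132 leaving out 1 library. The replicate block alone gave 1833, and among the genes named it ended the calls of SKP2 (edgeR adjusted p 0.0543), CDK1 (0.0572) and KLF4 (0.0609) and no other. The share higher was 56.3% under upper-quartile factors, 54.0% under library totals, 49.8% under median-of-ratios factors and 49.5% to 53.1% with other TMM references. The main fit took NPY1R low replicate 4 as its TMM reference, and its share of 42.5% lay below all of these. The background shares of 5.78% for rises and 7.81% for falls hold for that reference. The CDKN1A log2 change of -0.02 became 0.032 with upper-quartile factors, 0.026 with library totals, 0.0066 under median-of-ratios factors, 0.0116, 0.0122, 0.0071 and 0.0073 with NPY1R high replicates 1 to 4 as TMM reference, 0.0197, 0.0198 and 0.0134 with NPY1R low replicates 1 to 3, 0.0201 with no low count filter, 0.0213 with 10 counts in every library, 0.0056 with DESeq2 and 0.0224 with a GC offset. Leaving out 1 library it ran from -0.21 to 0.14, that of CCND3 from -0.24 to 0.031, of CCNE1 from -0.023 to 0.13 and of CCNE2 from -0.022 to 0.21, and the log2 ratio CCNE1 to CCNE2 from -0.076 to 0.043. In replicates 3 and 4 alone, the log2 ratio CCNE1 to CCNE2 was 0.19 and the log2 ratio CCND1 to CCND3 was -0.0071. The CDK6 share of CDK4 plus CDK6 per kilobase was 6.96% in NPY1R high and 3.15% in NPY1R low with the longest transcript, and 6.12% and 2.75% with the shortest. The cause of these shifts was not tested. A sign-flip test of a ratio over 4 pairs cannot go below 0.125, so the block says nothing on the ratios.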
